A study of Mus musculus with 101 samples.

Results

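The genes described here are 38 genes of DNA replication and mitosis that mark dividing cells. They were listed by symbol, and all 38 of 38 were among the 15423 genes of the expression table. Of these, 13 act in replication (Mcm2, Mcm3, Mcm4, Mcm5, Mcm6, Mcm7, Pcna, Cdc6, Cdt1, Gins2, Rrm1, Rrm2 and Tyms). The other 25 act mainly in mitosis or mark the cycling state (Mki67, Top2a, Ccna2, Ccnb1, Ccnb2, Cdk1, Cdc20, Plk1, Aurka, Aurkb, Bub1, Bub1b, Birc5, Cenpa, Cenpe, Cenpf, Kif11, Kif20a, Kif23, Tpx2, Ube2c, Ncapg, Nusap1, Prc1 and Foxm1).

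Mouse primordial germ cells (PGCs) multiply by mitosis after they settle in the gonad. In the fetal testis they then leave the cycle and stay arrested until after birth, whereas in the fetal ovary they copy their DNA in a premeiotic S phase and enter meiotic prophase. The minichromosome maintenance (MCM) helicase and its loading factors serve every S phase, and the cyclin B kinase, the Aurora kinases and the spindle motors serve every mitotic division.

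The study asked whether benzo[a]pyrene (BaP), a polycyclic aromatic hydrocarbon, given to a pregnant mouse alters the germ cells of her descendants. RNA was sequenced from PGCs of single E13.5 embryos, 53 male and 48 female. The stem of an embryo's name was read as its dam, which the labels do not state, and on that reading there were 56 dams. Litters below are embryos with the same stem. For F2 and F3 embryos the stem would be that of a later dam, and the names do not give the dosed F0 dam. All mice were of the OG2 strain, which carries EGFP under the Pou5f1 promoter and distal enhancer on a C57BL/6J background, and homozygous F0 mice were mated. PGCs were enriched for EGFP by flow sorting, and embryos were sexed by the shape of the gonad.

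Pregnant F0 dams took BaP in sesame oil by mouth, at 0.033 or 0.2 and, as the highest dose, 2 mg/kg-day, or the oil alone (vehicle, 0 mg/kg-day). Dosing ran from E6.5 to E11.5 for F1 embryos and from E6.5 to E15.5 for the lines that gave F2 and F3 embryos, which came from matings of non-littermates and were not dosed again. Vehicle embryos numbered 5 females and 5 males in F1, and 6 females and 6 males in both later generations. In F1, the groups at 0.033, 0.2 and 2 mg/kg-day held 2, 5 and 5 females and 2, 6 and 8 males. In F2 every dose had 3 females and 3 males, and in F3 there were 4, 2 and 4 females and 4, 4 and 3 males. A value is the deposited normalized count, scaled between libraries by the trimmed mean of M-values (TMM). Its sum per embryo ran from 758171 to 1594837. Whole reads could be recovered in 99 embryos and numbered from 5004382 to 87240533, with a median of 7789673. Reads of 11 F1 libraries, called deep from here on, numbered at least 21247642, and the largest other library had 12211582. Differences between groups are given on the log2(normalized count + 0.5) scale with their standard error (SE), and a gene was called at a limma adjusted p under 0.05 over all genes tested.

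Of 9 germ cell markers, all were found in vehicle embryos of both sexes and none was at 0 in any of them. Their summed normalized count per embryo ran from 2694 through a median of 4039 to 5741 in 17 males, and from 3032 through 3927 to 5380 in 17 females, with Dppa3 the most abundant. Of these markers, 8 were called between the sexes, 4 higher in males and 4 in females, so the sum joins opposite differences. Dppa3 had a mean of 2413 in males and 1612 in females, and Dazl one of 978 and 1375. Some libraries stood apart. F3 vehicle male D1388.1 had a summed count of 5419 over 7 erythroid markers, where the median vehicle male had 1.52, and was also the highest vehicle male in stroma markers (85.8, median 2.73) and fetal Leydig markers (37.8, median 5.72). Vehicle males D2991.3 of F2 and D2580.2 of F1 had erythroid sums of 1545 and 1055. Hba-a1 and Hba-a2 had the same mean (212) and highest count (2378) in vehicle males, and the same mean (7.17) in vehicle females. Sums and counts of erythroid markers, here and below, take them as separate genes, so the same value can enter more than once. Among males of 0.2 mg/kg-day, D1390.5 of F3 had the lowest mean log2(normalized count + 0.5) over 8 male arrest genes of the 13, 2.59 against a median of 3.497. Calls that changed without either embryo, or without the deep libraries, are given with both values.

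Per kilobase of exon, the level of the members in vehicle embryos covered a wide range. Ccnb2, a cyclin of the mitotic kinase, had the highest mean, 578 normalized counts per kb in males and 753 in females. Pcna, the sliding clamp of the replication fork, followed with 303 and 256, then Ccnb1, the partner cyclin of Cdk1, with 271 and 217, and Ube2c, the ubiquitin-conjugating enzyme of the anaphase-promoting complex, with 199.6 and 193. The lowest levels per kb were those of Foxm1, a transcription factor of G2 genes, at 1.39 in males and 1.48 in females, of the midzone kinesin Kif23 at 3.36 and 5.76, and of the origin loading factor Cdc6 at 4.44 and 4.63. Spread between embryos of a group also differed. The coefficient of variation was lowest for Cdk1 in vehicle females, 8.31%, and highest for Pcna in vehicle males, 49.9%.

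The comparison of vehicle males with vehicle females asked whether the sexes, at the stage when arrest and meiotic entry begin, differ in these genes. Over all generations (17 embryos of each sex), 9 members were higher in males and 9 in females. In the same comparison, 27.9 percent of all 13288 genes tested were called higher in males and 28.6 percent called higher in females, so the share of members called lay near the share of all genes. The median log2 difference, male minus female, was -0.06 over the members and 0.00 over all genes, with 17 members above and 21 below 0. An unadjusted p under 0.05 was reached by 19 of 38 members and by 8052 of all 13288 genes. Male and female embryos overlapped for every member (0 of 38 without overlap), where 4.46 percent of all genes had no overlap. In these bulk samples, fewer dividing cells and less RNA per cell cannot be told apart.

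**Figure D1:**
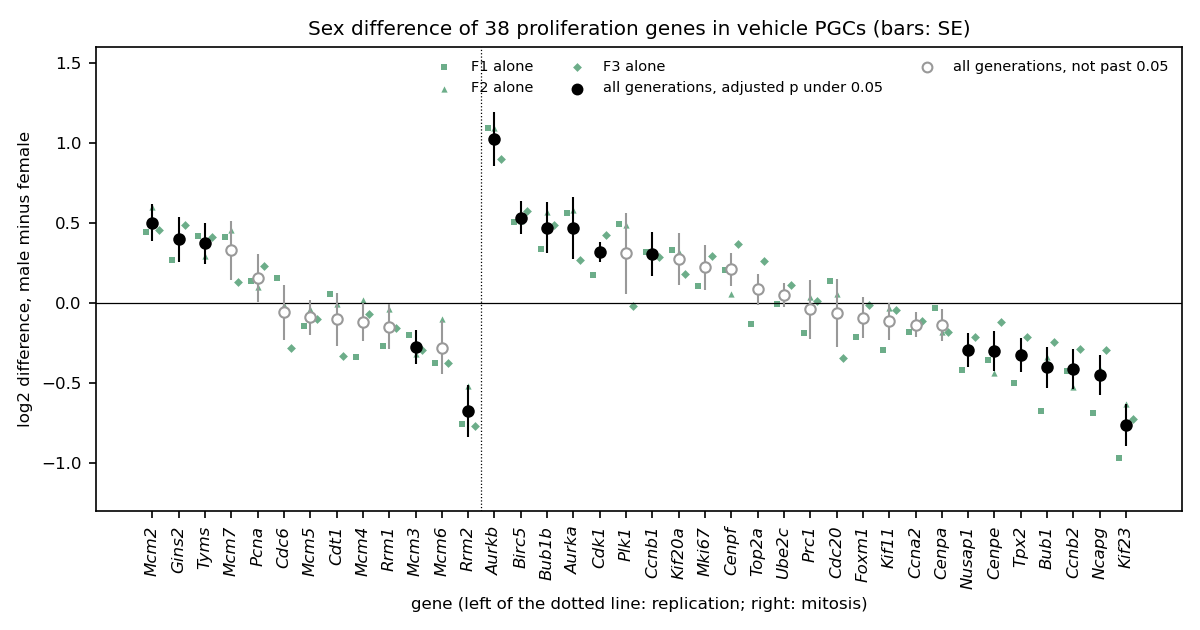
Log2 difference, male minus female, of each of the 38 members in vehicle PGCs over all generations and within each generation, with SE bars. Aurkb lay highest at 1.02 and Kif23 lowest at -0.76 over all generations.

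Among the 13 replication members, Mcm2, Tyms and Gins2 were higher in males and Rrm2 and Mcm3 in females, and 8 did not pass the test. Mcm2, a subunit of the MCM helicase, had normalized counts from 52.6 through a median of 83.8 to 107 in males and from 34.2 through 58.5 to 98.1 in females. The ranges overlapped, with 2 males above every female and 5 females below every male, and the male mean was higher in 14 of 15 litters with both sexes. The log2 difference was 0.50 (SE 0.12, limma adjusted p = 0.000141). Of the other helicase subunits, Mcm3 was lower in males, -0.27 (SE 0.11, limma adjusted p = 0.0239). Mcm7 at 0.33, higher in the male in 12 of 15 litters, was not called, nor were Mcm4 at -0.12, Mcm5 at -0.09 and Mcm6 at -0.28.

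Rrm2, the small subunit of the ribonucleotide reductase that makes deoxyribonucleotides, had counts from 57.8 through 127 to 182 in males and from 131 through 190.2 to 271 in females. Below every female lay 9 males, and above every male 11 females. The female mean was higher in all 15 litters. The log2 difference was -0.68 (SE 0.16, limma adjusted p = 0.000231). Rrm1, the large subunit of the same enzyme, was at -0.15 and was not called. Tyms, thymidylate synthase, ran from 286 through 441 to 785 in males and from 217 through 344 to 464 in females, a log2 difference of 0.37 (SE 0.13, limma adjusted p = 0.0099), and Gins2, a part of the replicative helicase complex, had one of 0.40 (SE 0.14, limma adjusted p = 0.0120). Pcna (0.16), Cdc6 (-0.06) and the licensing factor Cdt1 (-0.10) were not called.

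Among the 25 mitotic members, 6 were higher in males and 7 in females, and 14 had an unadjusted p under 0.05. Aurkb, the kinase of the chromosomal passenger complex (chr11:69045647-69051664, plus strand, GRCm38), had counts from 39.6 through 72.8 to 112 in males and from 18.6 through 35.6 to 58.6 in females. Of the males, 12 lay above every female, and the male mean was higher in all 15 litters, by 0.63 to 1.94 on the log2 scale. The difference was 1.02 (SE 0.17, limma adjusted p = 2.05e-07). Birc5, the survivin subunit that anchors the same complex at centromeres (chr11:117849251-117855743, plus strand), ran from 308 through 442 to 697 in males and from 204 through 312 to 416 in females, with 12 males above every female. Its difference was 0.53 (SE 0.10, limma adjusted p = 5.01e-06), and it was higher in the male in 12 of 15 litters.

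Cdk1, the kinase that drives entry into mitosis (chr10:69335146-69352938, minus strand), had counts from 180.03 through 256 to 285 in males and from 155 through 199 to 220.1 in females. Only 4 males fell within the female range, since 13 lay above every female. The difference was small, 0.32 (SE 0.06, limma adjusted p = 1.31e-05), and the male was higher in 14 of 15 litters. Litter differences ran from -0.09 to 0.69 on the log2 scale. Bub1b, the checkpoint protein BubR1, was higher in males by 0.47 (SE 0.16, limma adjusted p = 0.0074), and Bub1, its paralogue at the kinetochore, was lower in males, at -0.40 (SE 0.13, limma adjusted p = 0.00608).

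Kif23, the kinesin of the central spindle that is needed for cytokinesis (chr9:61915905-61946774, minus strand), was the member most clearly on the female side. Its counts ran from 16.8 through 24.7 to 38.3 in males and from 32.8 through 42.1 to 66.9 in females. Below every female lay 15 males, and the female was higher in 14 of 15 litters. The log2 difference was -0.76 (SE 0.13, limma adjusted p = 3.11e-07). Also higher in females were Ncapg, a condensin subunit, at -0.45 (limma adjusted p = 0.00131), Ccnb2 at -0.41 (0.00326), the spindle assembly factor Tpx2 at -0.32 (0.00594), the microtubule-binding Nusap1 at -0.29 (0.0138) and the kinetochore motor Cenpe at -0.30 (0.0319). The cyclins of the B type thus had opposite signs, with Ccnb1 at 0.31 (SE 0.14, limma adjusted p = 0.0472).

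Aurka, the kinase of the spindle poles, was also higher in males, with counts from 167 through 231 to 366 against 76.4 through 183 to 284 in females. The ranges overlapped, with 7 males above every female, and the male mean was higher in 14 of 15 litters. The log2 difference was 0.47 (SE 0.19, limma adjusted p = 0.0323). Of the 18 calls, 15 were made in every alternative that was run, and Aurka, Ccnb1 and Nusap1 were not. Without F3 vehicle male D1388.1, Aurka was at 0.43 (limma adjusted p = 0.0532, range over 13 alternatives 0.00733 to 0.0532) and Ccnb1 at 0.29 (limma adjusted p = 0.0675, range 0.0152 to 0.0835), so that 7 members were higher in males. Ccnb1 was also not called without the deep F1 libraries (0.27, limma adjusted p = 0.0835) or without a filter on low counts (limma adjusted p = 0.0501). Nusap1 was not called by the quasi-likelihood and likelihood ratio tests of edgeR (-0.23 by both, edgeR adjusted p = 0.0610 and 0.0605, range over alternatives 0.00427 to 0.0610). Cenpf was called with upper quartile scaling (0.24, limma adjusted p = 0.0171) and with dams as blocks (0.21, limma adjusted p = 0.0257), within a range of 0.0171 to 0.171.

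The other mitotic members were not called. Mki67, which encodes the Ki-67 antigen, had counts from 43.0 through 71.5 to 104 in males and from 31.5 through 60.0 to 122 in females, at 0.22 (limma adjusted p = 0.172). Every male lay within the female range, and the male mean was higher in 13 of 15 litters. For Ccna2 the female mean was higher in 13 of 15. Top2a, the topoisomerase that untangles sister chromatids, was at 0.09, Foxm1 at -0.09, the anaphase activator Cdc20 at -0.06, the polo-like kinase Plk1 at 0.31, Ccna2 at -0.13, Cenpa at -0.14, Cenpf at 0.21, Kif11 at -0.11, Kif20a at 0.28, Ube2c at 0.05 and Prc1 at -0.04, and none was called.

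Some members have limits set by the annotation. Exons of 12 members share bases with another gene, in 9 of them with a gene of the table, and the library kit was primed with oligo(dT) with no strand stated for the counting. Gins2 shares 2758 bases with Gse1 on the other strand, Kif20a 1271 with Cdc23, Ncapg 944 with Lcorl, Prc1 911 with Rccd1 and Ube2c 592 with Tnnc2. Ccna2, Mcm7, Nusap1 and Cdc20 share fewer, 510 with Exosc9, 321 with Ap4m1, 172 with Oip5 and 53 with Elovl1. The values of these 9 members are uncertain to that extent. Processed pseudogenes named after Ccnb1, Ccnb2, Pcna and Tyms could take or give reads, and those 4 are uncertain too.

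**Figure D2:**
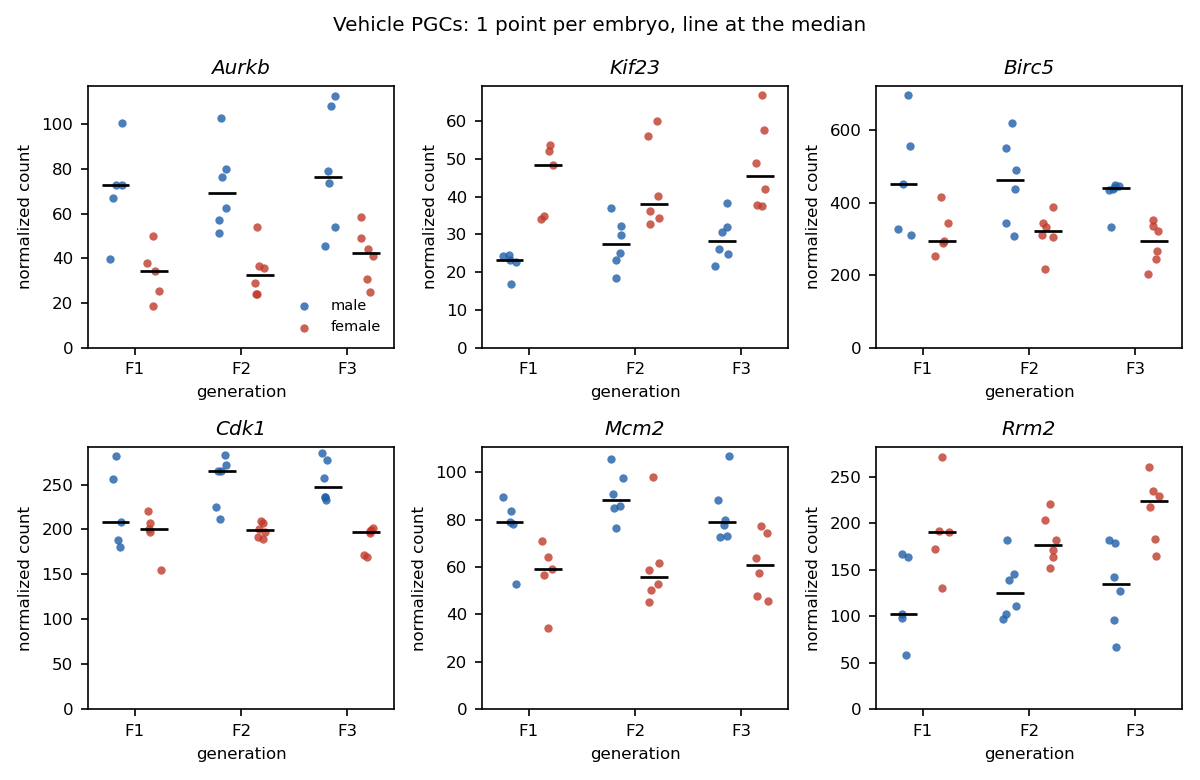
Normalized counts of selected members in vehicle PGCs, by generation and sex, with 1 point per embryo and a line at the median. Male Aurkb medians lay between 69.4 and 76.5 and female medians between 32.3 and 42.5 across generations, while those of Kif23 lay between 23.1 and 28.4 in males and 38.2 and 48.5 in females.

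Each generation was then fitted alone to see whether the sex differences were present in each. In F1 (5 embryos of each sex), Aurkb was the only member higher in males by the test, where 11.0 percent of 13635 genes were, and Kif23, Ncapg and Bub1 were higher in females, where 12.8 percent were. In F2 (6 of each sex), 6 members were higher in males against 20.7 percent of 13083 genes, and 5 in females against 20.4 percent. In F3 (6 of each sex), 3 members were higher in males against 16.4 percent of 13139 genes, and 2 in females against 15.8 percent. By their names, many of these embryos were littermates. With dam as a block, limma also called Rrm2 (-0.80, adjusted p = 0.0121), Tpx2 (-0.49), Nusap1 (-0.44) and Ccnb2 (-0.51) in F1, Gins2 (0.42) in F2, and Bub1b (0.48), Cenpf (0.38), Gins2 (0.50), Mcm2 (0.45, adjusted p = 0.0250) and Tyms (0.43) in F3, for 8, 12 and 10 member calls in place of 4, 11 and 5. Over all genes, the block gave 2218, 2797 and 2641 calls higher in males, in place of 1501, 2710 and 2153, and 2556, 2760 and 2520 higher in females, in place of 1749, 2665 and 2080. Over all alternatives the adjusted p ran from 0.0121 to 0.0939 for Rrm2 in F1 and from 0.0250 to 0.124 for Mcm2 in F3. Without the block, the members' shares lay near or below those of all genes, and their median log2 difference was -0.02 in F1, 0.03 in F2 and -0.03 in F3. An unadjusted p under 0.05 was reached by 8, 14 and 10 members, and over all genes by 4787 of 13635, 6398 of 13083 and 5519 of 13139.

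Aurkb and Kif23 were called in all 3 generations. In F1, Aurkb had counts of 72.8, 72.7, 39.6, 100.52 and 66.9 in the 5 vehicle males and 18.6, 25.5, 50.1, 34.3 and 37.8 in the 5 vehicle females, so that only male C4321.1 and female C4605.2 crossed. Kif23 had 16.8, 22.8, 24.4, 23.1 and 24.5 in the males and 34.0, 53.7, 48.5, 52.1 and 34.8 in the females. No male of F1 reached the lowest female for Kif23, nor for Ncapg. The share of all genes without overlap was computed over all generations only, not for groups of a single generation, here or below. The log2 difference of Aurkb was 1.09 in F1 (SE 0.33, limma adjusted p = 0.0131), 1.09 in F2 (SE 0.22, adjusted p = 0.000191) and 0.90 in F3 (SE 0.28, adjusted p = 0.0123). That of Kif23 was -0.97 (SE 0.24, limma adjusted p = 0.00305), -0.63 (SE 0.19, adjusted p = 0.0074) and -0.73 (SE 0.20, adjusted p = 0.0048).

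Each embryo of a group of 2 to 5 was left out in turn within its generation, in 24 fits for F1, 18 for F2 and 21 for F3. The 6 vehicle embryos of a sex in F2 and in F3 were not among them. In F1, Kif23 was called in all 24 fits, from -1.06 to -0.87. Aurkb was called in 23 of the 24, from 0.91 to 1.28, and not without vehicle female C4232.9 (0.91, limma adjusted p = 0.0574) or without the deep libraries (0.84, limma adjusted p = 0.135, range over 13 alternatives 0.00159 to 0.135). Ncapg, at -0.69 (SE 0.25, limma adjusted p = 0.0368), was called in 16 of the 24 fits. It was not called without vehicle males C3774.3, C4232.2, C4321.1 or D2580.2 or vehicle females C4232.9, C4321.6, C4605.2 or D1961.1, with limma adjusted p from 0.0517 to 0.0826. Bub1, at -0.67 (SE 0.25, limma adjusted p = 0.0457), was called in 14 of the 24. It was not called without any 1 of the same 8 vehicle embryos, nor without female D2271.1 or D2645.1 at 0.033 mg/kg-day, with limma adjusted p from 0.0507 to 0.103. Bub1 was also not called without the deep libraries (-0.65, limma adjusted p = 0.144) or with upper quartile scaling (-0.58, limma adjusted p = 0.0508), within a range of 0.00443 to 0.144. Rrm2 was called in F1 without vehicle male C3774.3 (-0.90, limma adjusted p = 0.0326) or C4605.1 (-0.91, limma adjusted p = 0.0337) or vehicle female C4232.9 (-0.88, limma adjusted p = 0.0441). Birc5 was called without vehicle male C4232.2 (0.64, limma adjusted p = 0.0489), and Tpx2 without vehicle male C4605.1 (-0.65, limma adjusted p = 0.0403).

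Birc5, Cdk1 and Rrm2 were called in F2 and in F3. Cdk1 had counts from 212 to 283 in F2 males and from 189 to 209.5 in F2 females, and from 233 to 285 and from 169 to 202 in F3, without overlap in either. Its log2 difference was 0.34 in F2 (limma adjusted p = 0.0140) and 0.42 in F3 (adjusted p = 0.00477), and 0.17 without a call in F1. Birc5 was at 0.51 in F2 (limma adjusted p = 0.00674) and 0.58 in F3 (adjusted p = 0.00341), and at 0.51 without a call in F1 (adjusted p = 0.105). Rrm2 was at -0.52 in F2 (limma adjusted p = 0.0318), -0.77 in F3 (adjusted p = 0.0337) and -0.76 without a call in F1 (adjusted p = 0.0611). Mcm2 was called in F2 at 0.60 (limma adjusted p = 0.00251), as were Bub1b, Aurka, Ncapg, Cenpe and Ccnb2, and not in F3, where it was at 0.45 (adjusted p = 0.0525).

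In F2 and F3, embryos were left out of the dose groups only, so these fits changed the error and the adjusted p but not the log2 difference, and do not test the calls against the loss of a vehicle embryo. The F2 calls lost in some of them were Cenpe, at -0.44 (SE 0.18, limma adjusted p = 0.0473), and Ccnb2, at -0.53 (SE 0.21, limma adjusted p = 0.0493). Cenpe was not called without D1669.5 at 2 mg/kg-day, D1996.1, D1996.2, D2256.2, D2256.3, D3136.1 or D3136.2 at 0.033 mg/kg-day, or D1040.1, D1040.2 or D3371.2 at 0.2 mg/kg-day, with limma adjusted p from 0.0502 to 0.0523. Ccnb2 was not called without any 1 of those 10, nor without D1669.1, D3620.3 or D4028.2 at 2 mg/kg-day or D1064.1, D1064.4 or D3371.1 at 0.2 mg/kg-day, with limma adjusted p from 0.0525 to 0.0550. Over the alternatives the adjusted p of Cenpe ran from 0.0267 to 0.0579, that of Ccnb2 from 0.0432 to 0.126 and that of Ncapg from 0.0138 to 0.0521. Gins2, at 0.42, was called in F2 without D1064.1 or D1064.4, and Mcm3, at -0.32, without D1064.1 (limma adjusted p = 0.0436, 0.0499 and 0.0432). In F3, Mcm2 was called without any 1 of D2203.2, D4190.1, D2549.1, D3501.3, D1390.5, D1464.1 or D4021.1, with limma adjusted p from 0.0392 to 0.0493. Gins2, at 0.49, was called there without D2203.2, E0103.2, D3744.4 or D4021.2 (limma adjusted p from 0.0439 to 0.0494) and without vehicle male D1388.1 (0.61, limma adjusted p = 0.0182, range over alternatives 0.0182 to 0.162). Cenpf, at 0.37, was called in F3 without D1390.1 (limma adjusted p = 0.0448).

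Whether the sex difference itself changed between generations was tested as an interaction, F2 or F3 against F1. Limma, edgeR and DESeq2 called 0 members, and 0 had an unadjusted p under 0.05 by limma. In F2 against F1, limma called 0 of all 13288 genes, and 193 had an unadjusted p under 0.05. In vehicle embryos of 1 sex, generations were also compared with each other in 6 contrasts, and limma, edgeR and DESeq2 again called 0 members. Over all genes limma also made 0 calls there. The members with an unadjusted p under 0.05 there were Plk1 (1.02) and Cdc20 (0.74) in F3 against F1 females, and Prc1 (0.64), Bub1 (0.46) and Top2a (0.33) in F3 against F1 males, and 0 in the other 4 contrasts. The smallest limma adjusted p among them was 0.961 in females and 0.977 in males. The numbers of all genes with an unadjusted p under 0.05 in these contrasts are not given.

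The genes around the members were compared in the same vehicle embryos, from lists of other replication, mitosis and cell cycle genes. In this comparison 27.9 percent of all 13288 genes were called higher in males and 28.6 percent in females. Of 46 other replication genes, 4 were called higher in males and 16 in females, with a median log2 difference of -0.18. Gins4, a partner of Gins2 in the same complex, ran from 139.6 through 199.1 to 284 in males and from 118 through 136 to 168 in females, at 0.55 (SE 0.07, limma adjusted p = 5.48e-11), and Mcm10 was at 0.66. The primase subunit Prim1 was at -0.50 and the polymerase subunit Pola1 at -0.60. Of 72 other mitosis genes, 19 were called higher in males and 16 in females, with a median of 0.00. Kif4, a chromokinesin, ran from 14.2 through 20.4 to 25.3 in males and from 28.4 through 36.6 to 53.2 in females, without overlap, at -0.86 (SE 0.10, limma adjusted p = 6.48e-12). Spc24 (0.53), Kif18b (0.92) and Psrc1 (1.45) were higher in males.

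Regulators of entry into the cycle were compared next. Of 33 such genes, 32 were tested, and 12 were higher in males and 9 in females, with a median of 0.11. Ccnd1, the G1 cyclin D1, had counts from 1.69 through 5.92 to 15.9 in males and from 27.6 through 67.2 to 89.9 in females, without overlap, a log2 difference of -3.12 (SE 0.27, limma adjusted p = 7.57e-19). Its partner kinases went the other way, with Cdk6 at 1.67 and Cdk4 at 1.20, and the inhibitor Cdkn2d was at -1.46. These 4, the genes of the list with the smallest p, each differed by more than any member, of which Aurkb at 1.02 had the largest difference.

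Genes of the fates of the 2 sexes, meiosis and arrest, separated the vehicle embryos more widely. Of 20 early meiosis genes, 18 were higher in females and 0 in males, with a median of -1.47. Stra8, the gene that gates meiotic entry, ran from 0 through 1.23 to 14.1 in males and from 62.9 through 450.5 to 743 in females, at -7.40 (SE 0.44, limma adjusted p = 1.85e-28), and the meiotic cohesins Rec8 and Smc1b were at -3.88 and -1.97 and the recombinase Dmc1 at -1.92. Of 8 genes of the male arrest and Nodal program, 5 were higher in males, among them Lefty2 at 6.87, Lefty1 at 5.83, Tdgf1 at 4.63 and Nodal at 3.29, and 0 in females.

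Markers of other gonadal cells differed between the sexes as well. All 7 tested of 8 Sertoli cell markers were higher in males, led by Cst9 at 9.04, Defb19 at 6.75, Ptgds at 6.64 and Sox9 at 3.15, and their summed count ran from 72.5 through 696 to 1382 in males and from 12.1 through 19.99 to 36.4 in females. Cst9 was the most abundant in males with a mean of 410.2 and Aard in females with 21.1, while Sox9 was at 0 in 12 and Amh in 15 of 17 vehicle females. Of 7 pregranulosa markers in the table, 5 were tested, 2 (Kitl and Lgr5) were higher in males and 1 (Wnt4) in females, with sums from 3.18 through 11.96 to 32.6 in males and from 2.45 through 5.23 to 12.5 in females. Of 6 fetal Leydig markers 3 were tested, Hsd3b1 was higher in males and Insl3 in females, and the sums had medians of 5.72 and 3.25. Of 5 endothelial markers 3 were tested and Pecam1 was higher in females, with median sums of 36.0 and 41.4. No stroma marker of 3 tested, macrophage marker of 6 or erythroid marker of 5 was called by limma (1, 0 and 0 at an unadjusted p under 0.05), with median sums of 2.73 and 1.44, 11.6 and 14.9, and 1.52 and 1.40 in males and females. The part of these other cells in the members' values was not tested.

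**Figure D3:**
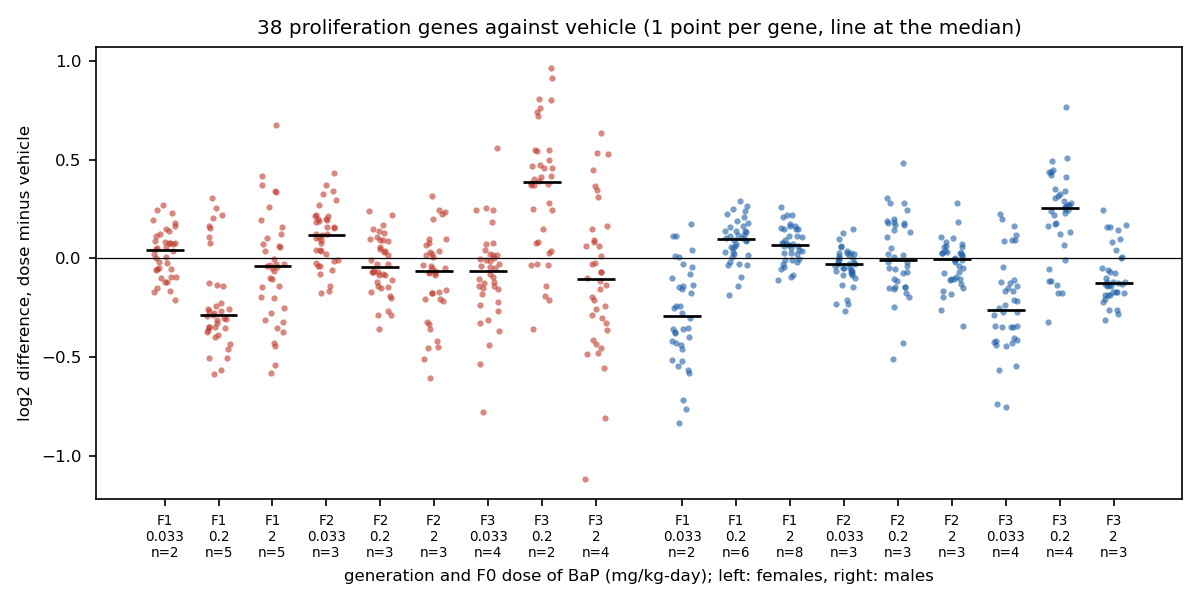
Log2 difference of each member between a BaP dose and the vehicle group of its sex, 1 point per gene and a line at the median, within each generation. The median was highest in F3 females at 0.2 mg/kg-day, 0.39 with 2 embryos.

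Exposure was asked about first with the generations together, each dose against vehicle within 1 sex. The 3 doses of a sex share the same 17 vehicle embryos. At 2 mg/kg-day in females (12 embryos), 1 member, Tyms, was higher than in vehicle, where 0.738 percent of all 13288 genes were called higher. Over all genes 98 were higher and 83 lower by limma, against 309 and 32 of 13291 genes by DESeq2 with its own size factors. Tyms had counts from 277 through 482 to 697 in these females and from 217 through 344 to 464 in vehicle females. The ranges overlapped, and 6 of the 12 exposed females lay above every vehicle female. The log2 difference was 0.51 (SE 0.14, limma adjusted p = 0.0481).

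The adjusted p of Tyms lay near the threshold, from 0.0289 by DESeq2 to 0.106 without the deep F1 libraries, where the log2 difference was 0.42, and the gene was called in 7 of 13 alternatives. It was not called with a pseudocount of 0.1 (limma adjusted p = 0.0514), with upper quartile scaling (limma adjusted p = 0.0526), without a filter (limma adjusted p = 0.0544), with generation as a term (limma adjusted p = 0.0589) or by the quasi-likelihood test of edgeR (edgeR adjusted p = 0.0733). DESeq2 also called Birc5 at 0.34 (DESeq2 adjusted p = 0.0480, range over alternatives 0.0480 to 0.123) and Pcna at 0.49 (DESeq2 adjusted p = 0.0485, range 0.0485 to 0.127). Both Tyms and Pcna have processed pseudogenes.

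Of the other members at that dose, 10 had an unadjusted p under 0.05 and were not called, where 3098 of all 13288 genes had one. They were Birc5 (0.35, limma adjusted p = 0.0654), Ube2c (0.24), Pcna (0.44), Cenpa (0.29) and Gins2 (0.33) above vehicle, and Ncapg (-0.35), Cdc20 (-0.58), Plk1 (-0.60), Prc1 (-0.41) and Rrm1 (-0.31) below it. Over the 38 members, 11 lay above 0 and 27 below, with a median of -0.11, where the median of all genes was -0.02. Birc5 ran from 318 through 384 to 461 in the exposed females and from 204 through 312 to 416 in vehicle females. The ranges overlapped, and the vehicle median lay below the lowest exposed female. Of 20 early meiosis genes, 1 was called lower by limma in these females, and 16 lay below vehicle, with a median of -0.31. Of 9 germ cell markers 1 was called higher, and of 72 other mitosis genes 2 were. Over all 13288 genes, 98 were called higher and 83 lower. The calls over all genes fell to 0 without the deep F1 libraries and to 1 with generation as a term. In the same females the summed Sertoli markers ran from 17.8 through 22.3 to 114, against a vehicle high of 36.4, and the summed erythroid markers from 0.272 through 3.04 to 1788, against a vehicle high of 239.9. Their part in the values was not tested.

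By generation, Tyms had counts of 644, 697, 457, 640.0 and 374 in the 5 F1 females at 2 mg/kg-day and 344, 256, 365, 319.8 and 464 in the 5 vehicle females, with 3 exposed embryos above every vehicle embryo. In F2 the 3 exposed females had 277, 388 and 554, of which only the last lay above the vehicle span of 269.8 to 464. The 4 F3 females had 508, 383, 408 and 691, and those of vehicle ran from 217 to 459. Exposed F1 females thus differed from vehicle by 0.67 on the log2 scale (limma adjusted p = 0.444), those of F2 by 0.10 (limma adjusted p = 0.932) and those of F3 by 0.64 (limma adjusted p = 0.243), and none was called.

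In the other 5 comparisons over all generations limma, edgeR and DESeq2 called 0 members, and limma called 0 of all 13288 genes. In females at 0.033 mg/kg-day (9 embryos) and 0.2 mg/kg-day (10 embryos), 0 members had an unadjusted p under 0.05. Of all 13288 genes 277 and 140 had one. The member medians at these doses were 0.03 and -0.08, against 0.00 over all genes at both. In males at 0.033 mg/kg-day (9 embryos), 33 of 38 members lay below vehicle, with a median of -0.17 against -0.02 over all genes. Of the members 3 had an unadjusted p under 0.05, where 621 of all 13288 genes had one. The 7 Sertoli markers tested all lay above vehicle there, with a median of 0.38 and 3 at an unadjusted p under 0.05, and none was called by limma. The 3 members were Foxm1 at -0.44 (SE 0.15, limma adjusted p = 0.894), Top2a at -0.25 and Mcm4 at -0.29. Foxm1 counts ran from 2.69 through 6.05 to 8.45 in these males and from 4.16 through 8.16 to 11.6 in vehicle males, and the ranges overlapped. In males at 0.2 mg/kg-day (13 embryos), 32 members lay above vehicle with a median of 0.09, against 0.00 over all genes, and at 2 mg/kg-day (14 embryos) 16 did, with a median of -0.05. At either dose 0 members had an unadjusted p under 0.05, where 447 and 519 of all 13288 genes had one at 0.2 and 2 mg/kg-day. In males at 0.2 mg/kg-day, all markers tested of Sertoli cells (7, median -0.70), pregranulosa cells (5, -0.32), stroma (3, -0.63), fetal Leydig cells (3, -0.61) and erythroid cells (5, -1.71) lay below vehicle. Of these, 5, 2, 2, 2 and 1 had an unadjusted p under 0.05, and none was called by limma. The part of these cells in the members' values was not tested.

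Within single generations, the 18 comparisons of a dose with vehicle gave 0 member calls by limma, and 0 by edgeR and DESeq2. An unadjusted p under 0.05 was found for 9 members in F3 females at 2 mg/kg-day, 8 in F3 females at 0.2, 5 in F3 males at 0.033, 3 in F1 females at 2, 3 in F2 males at 0.2, 2 in F3 males at 0.2, and 1 each in F1 males and F3 females at 0.033 mg/kg-day. The genes with one over all genes numbered, in the same order, 2018, 1677 and 402 of 13139, 1349 of 13635, 1253 of 13083, 1392 of 13139, 864 of 13635 and 527 of 13139. The 9 were Tyms (0.64), Pcna (0.53), Birc5 (0.45), Gins2 (0.54), Cenpa (0.37) and Ube2c (0.31) above vehicle and Plk1 (-1.12), Prc1 (-0.56) and Cdc20 (-0.81) below it, with limma adjusted p from 0.243 to 0.274. All 5 erythroid markers tested lay above vehicle in these females, with a median of 2.04 and 2 at an unadjusted p under 0.05. The 8 were carried by 2 embryos. Mki67 had counts of 94.9 and 109.9 there against 47.3 to 73.3 in 6 vehicle females, without overlap, at 0.80 (SE 0.23, limma adjusted p = 0.337). Mcm2 at 0.81 and Bub1b at 0.97 followed, and 31 of 38 members lay above vehicle with a median of 0.39, against 0.01 over all genes. The endothelial sums of these 2 females were 56.4 and 92.8, against 31.0 to 59.3 in F3 vehicle females. In vehicle females of all generations this sum was mostly Pecam1 (mean 32.8) and Egfl7 (8.82), while Kdr was at 0 in 11 and Emcn in 13 of 17. The means of the 2 exposed females over 8 male arrest genes were 1.40 and 1.62, against 0.56 to 0.995 in F3 vehicle females. Of the 8 genes, 5 had an unadjusted p under 0.05. No gene of either list was called by limma, and the part of this in the members' values was not tested. The study reports Tdgf1 and Lefty2, both of the male arrest list, among its significant genes in this comparison by the edgeR likelihood ratio test.

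In F3 males at 0.033 mg/kg-day, 31 of 38 members lay below vehicle with a median of -0.26, among them Kif23 at -0.74 (SE 0.22, limma adjusted p = 0.970), Top2a at -0.44 and Foxm1 at -0.57. In F3 males at 0.2 mg/kg-day, 30 members lay above it with a median of 0.26, against 0.01 over all genes, with Mki67 at 0.49 and Rrm2 at 0.77 (limma adjusted p = 0.285 and 0.350). The Sertoli markers there all lay below vehicle (7, median -1.12, 6 at an unadjusted p under 0.05), as did the stroma (6, -0.89, 1) and erythroid markers (5, -1.72, 0). Their Sertoli sums were 469.5, 65.8, 444 and 119, against 73.2 to 1382 in F3 vehicle males. In F1 the members' medians were -0.29 in males at 0.033 mg/kg-day (2 embryos), where Rrm2 was at -0.84, and -0.29 in females at 0.2 mg/kg-day, against -0.02 and 0.00 over all genes. The 2 males had Sertoli sums of 2557 and 1283, above the 72.5 to 1096 of F1 vehicle males, and all 7 Sertoli markers lay above vehicle (median 1.44, 4 at an unadjusted p under 0.05). Of the 5 females, the deep libraries C4228.3 and C4242.1 had member means of 6.11 and 6.51, and the others 6.93, 6.88 and 6.61. Among F1 vehicle females, deep library C4232.9 had 6.41, and the others 6.82, 7.17, 6.90 and 6.86. The members' median without the deep libraries is not given. Sertoli sums of C4228.3 and C4242.1 were 73.6 and 71.2, against 17.98 to 34.97 in F1 vehicle females. C4242.1 also had sums of 120.4 for macrophage and 459.5 for erythroid markers. No gene of these lists was called by limma, and the part of these cells in the members' values was not tested.

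Whether a dose acted differently in the sexes was tested as an interaction over all generations, 3 contrasts. Limma, edgeR and DESeq2 called 0 members. The members with an unadjusted p under 0.05 were Mki67 at 0.033 mg/kg-day, with -0.49 (limma adjusted p = 0.9997), and Tyms at 2 mg/kg-day, with -0.40 (limma adjusted p = 0.723). Over all 13288 genes, 240, 268 and 869 had one at 0.033, 0.2 and 2 mg/kg-day, and limma called 0 at each dose. At 0.033 mg/kg-day 36 of 38 members lay below 0 (median -0.18), and 7 Sertoli markers and 20 early meiosis genes all lay above it. Of all 13288 genes 6854 lay below 0 (median -0.01), as did 37 of 46 other replication and 57 of 72 other mitosis genes. At 0.2 and 2 mg/kg-day, 30 and 23 members lay above 0, against 6586 and 6889 of all 13288 genes, and all 7 Sertoli markers lay below. The part of other cells was not tested.

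**Figure D4:**
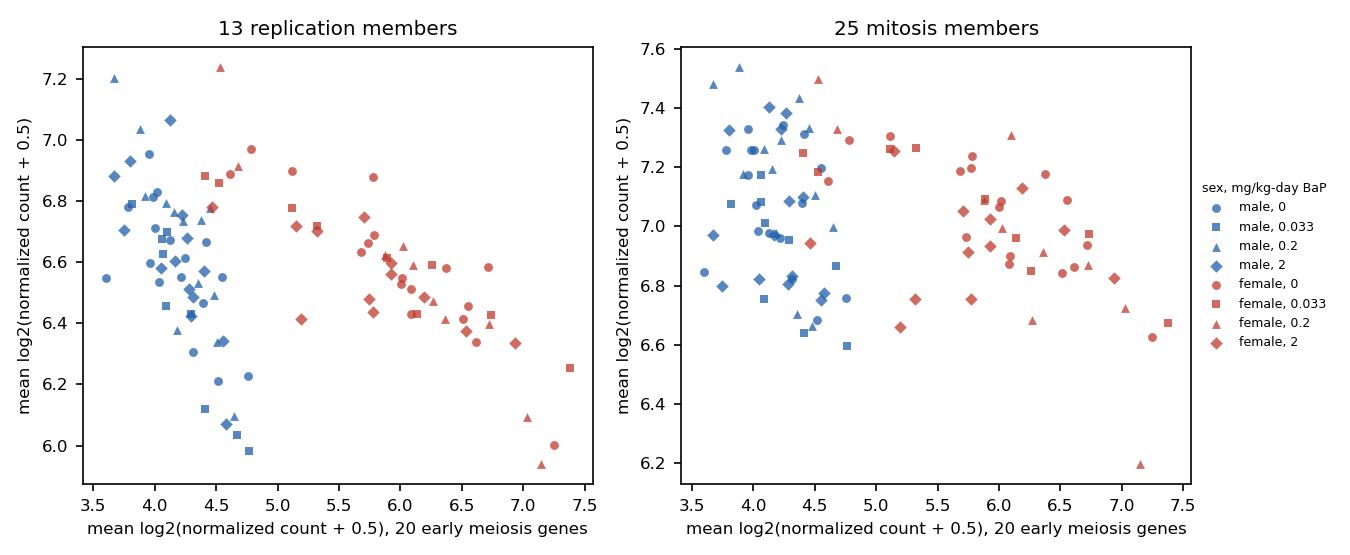
Mean log2(normalized count + 0.5) of the 13 replication members and of the 25 mitotic members against that of 20 early meiosis genes, 1 point per embryo, coloured by sex and dose. Within each sex, embryos with higher means of early meiosis genes had lower means of the replication members.

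Members were also compared between embryos of the same group. After the mean of its sex, generation and dose group was removed, a pair of members had a median Pearson correlation of 0.39 over 53 males and 0.36 over 48 females, and 73.4% and 67.0% of 703 pairs were positive. Pairs of other genes were not computed. Each member was also set against the mean of the rest. In males 32 of 38 were positively correlated, the highest being Rrm1 at 0.90 and Mcm4 at 0.88. In females 30 were, the highest being Mcm6 at 0.95 and Kif20a at 0.90. The females' exceptions were Birc5 at -0.71, Gins2 at -0.70, Pcna at -0.64, Ccnb2 at -0.63, Cenpa at -0.39, Ube2c at -0.26, Tyms at -0.21 and Nusap1 at -0.03. All values of an embryo come from 1 library, and many embryos share a litter, so these are descriptions of the libraries.

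The mean of the replication members and that of the mitotic members correlated at 0.72 over 53 males (Spearman 0.73) and at 0.81 over 48 females (Spearman 0.77), after removal of group means. Against the 20 early meiosis genes, the replication mean correlated at -0.79 in males (Spearman -0.79) and -0.84 in females (Spearman -0.85), and the mitotic mean at -0.41 in males (Spearman -0.41) and -0.64 in females (Spearman -0.65). By generation the replication value was -0.85, -0.68 and -0.80 in F1, F2 and F3 males and -0.85, -0.93 and -0.87 in females. Both means come from the same library of each embryo. The 2 F3 females at 0.2 mg/kg-day in which Mki67 was high had early meiosis means of 4.68 and 4.53 and replication means of 6.91 and 7.24, where the 6 vehicle females of F3 had 4.61 to 6.61 and 6.34 to 6.89.

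Promoters are shown for the 2 members with the smallest p on each side of the vehicle comparison that had an entry in the RefSeq promoter table, to set their letters beside their opposite differences. The table gave promoters of 300 bases, 250 before to 50 after the start, for 31 of the 38 members (33 promoters; Aurkb is named only). Motifs searched on both strands were the CCAAT box (CCAAT), the cell cycle homology region or CHR (TTTGAA) and the E2F site (TTTCCCGC, TTTCGCGC, TTTGCCGC or TTTGGCGC), which cell cycle promoters often carry. Of 32851 promoters of this length, 37.4% held CCAAT, 17.9% TTTGAA and 2.26% an E2F form, and of the 31 members 26, 16 and 8 did. A match is a description of the letters only. The sequences are from GRCm38.p6, 5′ to 3′ on the strand of the gene, with motif matches in capitals (ATTGG is CCAAT on the other strand). They are Birc5 at chr11:117848987-117849286 on the plus strand, without a match, Cdk1 at chr10:69352863-69353162 on the minus strand, with 3 ATTGG, 2 TTTGAA and 1 TTTCGCGC, Kif23 at chr9:61946750-61947049 on the minus strand, with ATTGG and TTTGAA, and Rrm2 at chr12:24708004-24708303 on the plus strand, with CCAAT.
Birc5: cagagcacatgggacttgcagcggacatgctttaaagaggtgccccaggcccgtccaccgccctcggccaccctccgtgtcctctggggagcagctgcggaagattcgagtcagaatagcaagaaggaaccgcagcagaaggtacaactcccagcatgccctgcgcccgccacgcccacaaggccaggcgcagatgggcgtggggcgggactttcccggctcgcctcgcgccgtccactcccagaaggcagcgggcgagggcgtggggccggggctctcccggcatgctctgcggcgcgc
Cdk1: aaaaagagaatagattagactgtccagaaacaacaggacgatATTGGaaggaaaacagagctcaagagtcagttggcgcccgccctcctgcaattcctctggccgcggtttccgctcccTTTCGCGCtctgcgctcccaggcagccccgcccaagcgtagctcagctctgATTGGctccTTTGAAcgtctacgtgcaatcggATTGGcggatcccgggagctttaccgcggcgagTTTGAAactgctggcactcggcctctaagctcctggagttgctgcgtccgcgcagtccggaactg
Kif23: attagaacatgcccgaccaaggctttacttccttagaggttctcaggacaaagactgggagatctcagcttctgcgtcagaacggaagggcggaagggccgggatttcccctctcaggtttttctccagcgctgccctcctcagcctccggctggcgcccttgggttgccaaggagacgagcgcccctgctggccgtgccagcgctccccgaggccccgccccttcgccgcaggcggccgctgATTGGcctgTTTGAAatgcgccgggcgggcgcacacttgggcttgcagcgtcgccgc
Rrm2: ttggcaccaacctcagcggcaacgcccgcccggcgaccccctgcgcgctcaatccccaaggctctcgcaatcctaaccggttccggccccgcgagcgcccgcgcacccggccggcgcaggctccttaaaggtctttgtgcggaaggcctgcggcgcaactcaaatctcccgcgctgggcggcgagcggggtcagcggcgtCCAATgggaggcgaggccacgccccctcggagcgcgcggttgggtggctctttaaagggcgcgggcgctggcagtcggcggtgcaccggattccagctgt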

How the data were processed

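The authors made cDNA straight from the flow-sorted PGCs of each embryo, without a stated RNA extraction, with the SMARTer Ultra Low Input kit and its oligo(dT) primer. Paired-end reads from a NextSeq 500 were trimmed with Trim Galore, mapped to GRCm38 (mm10) with STAR, counted on exons with Rsubread and scaled by TMM in edgeR. No software versions were given. The deposited signal per gene and embryo is the authors' TMM-normalized count. Such values are not raw counts, which made limma the main test and the study's edgeR likelihood ratio test an alternative.

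Each embryo's values share a common step, from which whole reads were recovered in 99 embryos (100.0 percent of values within 0.05 of a whole read). In vehicle female D1388.3 and in D4190.1, a male of the 2 mg/kg-day group, both of F3, the step could not be told from rounding, so they were left out of the tests on reads. Recovered depth ran from 5004382 to 87240533 reads with a median of 7789673, so genes near 1 read have little precision. Libraries of more than 20000000 reads, which occurred in F1 alone, were called deep. Embryos of the same group were checked for copied libraries, and among 184 pairs the smallest chi-square divided by its degrees of freedom was 5.86. The dam was read from the stem of the embryo's name, and the labels do not say that the stem is the dam.

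Analysis was done in R 4.3.3 with limma 3.58.1 (limma-trend on log2 of value + 0.5, genes with a mean of at least 0.5 in the fit, Benjamini-Hochberg adjustment over all genes tested, calls at an adjusted p under 0.05), edgeR 4.0.16 and DESeq2 1.42.0, and the code was tested on simulated data. Embryos were grouped by sex, dose and generation per the labels. A fit of 8 sex-by-dose groups was made over all generations and within each, and one of 24 groups was made for contrasts between generations. Sex differences are male minus female. The members and lists were chosen with earlier results of these data known. All members are named. Full statistics are given for up to 6 members of smallest p in the vehicle sex comparison, up to 3 in any other and each member called for dose, interaction or generation, and up to 4 genes of each other list. Ranges of other members were named after their values were seen.

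The alternatives were pseudocounts of 0.1 and 1, no filter, a minimum mean of 5, the quasi-likelihood and likelihood ratio tests of edgeR and the Wald test of DESeq2 on recovered reads, upper quartile scaling, dam as a block, generation as a term, the compared groups fitted alone, leaving out embryos of groups of 2 to 5 in turn, leaving out the deep F1 libraries, and leaving out F3 male D1390.5. Leaving out F3 vehicle male D1388.1 was chosen after seeing the data.

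Several limits apply. Samples were bulk PGCs enriched by sorting, and the share of other cells in each was not measured, so a difference can lie in the number of dividing cells, in RNA per cell or in other cells. Only E13.5 was sampled, and no cell cycle phase was measured. Some dose groups held 2 or 3 embryos, and deep libraries lay in F1 alone, so depth and generation overlap. The vehicle embryos of a sex serve all 3 doses. Littermates were treated as independent except with dam as a block. In F2 and F3, embryos of different stems may descend from the same dosed F0 dam. The names do not give that descent, so the block does not cover it, and it was not tested. With oligo(dT) priming and counting with no strand stated, overlapping genes and processed pseudogenes can share reads.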

Additional observations from a re-analysis of the deposited data

Results flagged for a closer look

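Groups of 4 to 10 embryos were searched for 1 embryo far from the rest, for members with full statistics in the vehicle sex comparison and for Tyms in females. Of 41 groups tested, 3 had one, and chance flags about 1 in 20 groups. Kif23 had a normalized count of 16.8 in F1 vehicle male C3774.3, where the nearest male of the group had 22.8. Birc5 had 334 in F3 vehicle male D1388.1, where the nearest had 436. Mcm2 had 98.1 in F2 vehicle female D3133.2, where the nearest had 61.6. The causes were not tested.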

How the results depend on the processing

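Of 115 summary counts recomputed under the planned and added alternatives, 107 stayed within 1.5 times their reported value and 8 did not. The count of members called for BaP over all generations, 1 as reported, was 0 with a pseudocount of 0.1, without a filter, with the edgeR quasi-likelihood test, with upper quartile scaling, with generation as a term and without the deep F1 libraries, and 3 with the DESeq2 Wald test. With the replicate block of dam, the member calls higher in males within F1, F2 and F3 numbered 16 in place of 10, and those higher in females 14 in place of 10. Over all genes the calls with the block were 2218, 2797 and 2641 higher in males, in place of 1501, 2710 and 2153, and 2556, 2760 and 2520 higher in females, in place of 1749, 2665 and 2080. The consensus correlation within dams was 0.382 in F1, 0.0532 in F2, 0.225 in F3 and 0.262 over all generations. The cause was not tested.

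Over all generations, the members higher in vehicle males numbered 7 to 10 and those higher in females 8 to 9 across alternatives. With each embryo of the smaller groups left out in turn (63 fits), the sum within generations ran from 9 to 12 for males and from 8 to 12 for females, and the member calls for BaP within generations stayed at 0. Among single named genes, 2113 values kept direction and side of the threshold, 24 passed it, 12 no longer did, 1 moved across 0 without a call and 0 called values changed sign.

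Over all genes, the calls in females at 2 mg/kg-day with generations together numbered 181. They were 0 without the deep F1 libraries, 1 with generation as a term, 19 without a filter, 21 with a pseudocount of 0.1, 27 with the quasi-likelihood test, 28 with upper quartile scaling, 276 with a pseudocount of 1, 341 with DESeq2, 414 with a minimum mean of 5 and 445 with the block of dam. Without D1388.1 there were 272. In F2 males at 0.2 mg/kg-day, 19 genes were called, against 0 with the compared groups alone, 3 with the quasi-likelihood test, 10 without a filter, 12 with a minimum mean of 5, 65 with the likelihood ratio test and 69 with DESeq2. In F1 females at 2 mg/kg-day, 1 gene was called, against 0 to 18 over the alternatives. The other dose contrasts had 0 calls by limma and at most 91 in an alternative (likelihood ratio test, F3 males at 0.2 mg/kg-day). The interaction contrasts had 0, and at most 9 in an alternative, and the generation contrasts 0, and at most 3. The cause was not tested.

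Upper quartile scaling moved the median log2 difference over all genes by more than 0.1 in F1 females at 2 mg/kg-day, from -0.02 to 0.10, and in vehicle males of F3 against F1, from 0.01 to -0.11, with 0 members called by limma in either.

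Litters were also checked for shared values. In 15 vehicle litters with both sexes, the correlation across 8485 genes between littermates, after removal of group means, ran from -0.389 to 0.655 with a median of 0.325, and was over 0.1 in 11. Genes of an embryo are not independent replicates, and the cause was not tested.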
